A study of Homo sapiens with 12 samples.

Results

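The genes described here are 155 solute carrier genes, read by 188 probes, of 8092 genes measured in the L-540 Hodgkin lymphoma cell line under perifosine, sorafenib or both. They are the genes whose platform symbol begins with SLC and a number, or with SLCO, and for which 3 or more of the 12 arrays gave a probe a detection p below 0.01. The amino acid, glucose and lactate carriers SLC2A1, SLC2A3, SLC16A1, SLC16A3, SLC1A4, SLC1A5, SLC3A2, SLC7A1, SLC7A5, SLC7A6, SLC7A11, SLC38A1, SLC38A2 and SLC43A1 were set aside. The array carried 376 other such symbols, of which 221 had no probe past this limit. The mitochondrial carriers of the SLC25 family formed a subgroup of 32 genes with 42 probes, from 45 SLC25 symbols on the array. Of the 155 genes, 107 were detected on all 12 arrays and 48 on 3 to 11 of them. The symbol rule also took in 7 genes that encode no carrier, among them the transcription factor gene SLC2A4RG, the adaptor gene SLC4A1AP, 2 long non-coding RNAs and 2 pseudogenes, which left 148 carriers.

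Solute carriers are membrane proteins that move small molecules and ions across the plasma membrane or the membranes of organelles, without using ATP directly. The SLC25 proteins sit mostly in the inner mitochondrial membrane and exchange nucleotides, carboxylates, amino acids, cofactors and metals between the cytosol and the matrix. Members of the SLC35 family load the Golgi and the endoplasmic reticulum with nucleotide sugars and with PAPS, the sulphate donor for glycans and proteins. Zinc is moved by the SLC30 and SLC39 families, magnesium by SLC41, and bulky organic anions such as thyroid hormones and prostaglandins by the SLCO family.

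L-540 is a single established line, derived from Hodgkin lymphoma, and all 12 RNA samples came from cells of it grown in the same medium. Control cells, cells with 10 µM perifosine, cells with 5 µM sorafenib and cells with both drugs at those doses were compared after 24 h, with 3 arrays per group named A, B and C. The labels do not say whether the control cells received a vehicle. Perifosine, an alkylphospholipid, hinders AKT from binding the membrane, and sorafenib inhibits several kinases. No label says if A, B and C were cultured apart, and the spread behind every p-value, that between these arrays, may be technical.

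Between 9291 and 11657 probes were detected per array, and the lowest number was that of array B with both drugs, which also had the lowest array weight, 0.291 against 0.664 to 1.69 on the others. Pearson's r between arrays of a group ran from 0.956 to 0.984. Of 8 Hodgkin cell markers, 6 were measured, and CCL17 was detected on no array. TNFRSF8, which encodes CD30, was lower with sorafenib by a log2 change of -0.98 ± 0.188 (SE, limma, adjusted p = 0.0295). The other measured markers did not pass with sorafenib, at 0.84 for TRAF1 (adjusted p = 0.12, and 0.0446 with array letter as a block), 0.21 for BATF3, 0.02 for FUT4, -0.26 for GATA3 and -0.56 for IL2RA. Among markers of other cells, CD3D, CD3E, CD3G, CD5 and CD7 of T cells and MS4A1, CD79A, CD79B and PAX5 of B cells were detected on no array. The same held for CD14, CD163 and LYZ of macrophages and COL1A1, COL1A2, DCN and LUM of fibroblasts. EPCAM, KRT8, KRT18 and CDH1 of epithelium and VWF, CDH5 and KDR of endothelium were not detected on any array either. The lymphoid genes CD2, CD247, NKG7 and BLK and the macrophage gene CSF1R were detected on all 12 arrays, CD68 on 8 and the fibroblast gene COL3A1 on 4. Because each array holds the pooled RNA of many cells, fewer cells with a transcript and less transcript per cell cannot be told apart.

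Every value below is a normalized log2 intensity of 1 probe, or a difference of such values between groups. A gene was called when limma's adjusted p, taken over all 8092 genes, was under 0.05. With perifosine no solute carrier was called, and neither was any other gene (0.0% of 8092). At an unadjusted p under 0.05 there were 2 solute carriers and 198 genes in all (2.45%). With sorafenib 2 of 155 solute carriers were called, SLC66A3 higher and SLCO4A1 lower, which is 1.29% of them against 1.47% of all genes tested. With both drugs 7 were called, which is 4.52% against 3.41% of all genes, and of these 5 were higher (2.31% of all genes were called higher) and 2 lower (1.1%). Of the 5, SLC6A9 passed the detection limit only through arrays with sorafenib, alone or with perifosine. Its call is therefore not independent of that limit. The median log2 change of the 155 genes was 0.04 with perifosine, -0.03 with sorafenib and 0.04 with both drugs, beside 0.00, 0.00 and 0.01 over all genes tested. The shares called and the medians of the solute carriers were near those of all genes, and the 3 comparisons share the same control arrays.

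Arrays of control, perifosine and sorafenib that bear the same letter deviated together, so the sorafenib comparison was also fitted with the letter as a block. In that fit 7 solute carriers passed (4.52%, against 4.99% of all genes), SLC25A42, SLC39A11, SLC66A3, SLC67A1 and SLC6A9 higher and SLCO4A1 and SLC35B2 lower. With perifosine the block gave no call either. Without the combination arrays the block fit gave 10 calls with sorafenib, and the share of all genes in that fit is not given here. The arrays of treated and control cells did not overlap for 13 solute carriers with perifosine (8.39%, against 7.46% of all genes), for 38 with sorafenib (24.5%, against 24.9%) and for 41 with both drugs (26.5%, against 24.3%).

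The promoters of 3 of the called genes are shown here, because SLC25A42 is the called mitochondrial carrier and because SLC35B2 and SLC35B3, which serve the same substrate, moved in opposite directions. The windows are RefSeq sequence of GRCh38.p14, from 250 bases before to 50 bases from the first transcript start listed for the gene. SLC25A42 lies at chr19:19063744-19064043 on the plus strand, SLC35B2 at chr6:44257841-44258140 and SLC35B3 at chr6:8435496-8435795, both on the minus strand. Capitals mark the core of the hypoxia response element, ACGTG or GCGTG, found on either strand.
SLC25A42: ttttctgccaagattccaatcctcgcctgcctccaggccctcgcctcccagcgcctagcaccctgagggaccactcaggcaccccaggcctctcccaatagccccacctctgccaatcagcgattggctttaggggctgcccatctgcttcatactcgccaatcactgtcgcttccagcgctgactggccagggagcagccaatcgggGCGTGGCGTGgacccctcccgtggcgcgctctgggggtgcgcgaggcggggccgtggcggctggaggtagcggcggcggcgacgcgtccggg
SLC35B2: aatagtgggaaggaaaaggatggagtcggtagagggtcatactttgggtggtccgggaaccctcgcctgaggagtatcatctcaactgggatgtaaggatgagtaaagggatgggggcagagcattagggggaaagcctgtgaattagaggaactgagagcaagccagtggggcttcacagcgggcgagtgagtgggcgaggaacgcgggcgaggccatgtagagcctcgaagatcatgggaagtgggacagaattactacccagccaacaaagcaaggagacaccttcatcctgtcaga
SLC35B3: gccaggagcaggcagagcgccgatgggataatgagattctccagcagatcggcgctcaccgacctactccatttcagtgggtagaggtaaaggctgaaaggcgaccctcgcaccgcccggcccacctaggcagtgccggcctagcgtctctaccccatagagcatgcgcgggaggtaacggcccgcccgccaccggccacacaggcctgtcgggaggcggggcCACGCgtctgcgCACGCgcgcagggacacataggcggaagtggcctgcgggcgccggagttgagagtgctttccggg

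The SLC25A42 window holds this core in 2 adjoining copies that begin 42 and 37 bases before the start. The SLC35B3 window holds 2 copies on the opposite strand, beginning 27 and 15 bases before the start, and the SLC35B2 window has none. Of the other called genes with a listed promoter, SLC66A3 and SLC6A9 have none. SLC41A2 has a single CACGTG, which reads as the core on both strands, 26 and 27 bases past the start. SLCO4A1 had no listed promoter. For SLC35B2 3 promoters are listed, and for SLC35B3 and SLC41A2 2 each, of which only the first is described here. The core is short, and 48.4% of the first-listed promoters of 27305 genes hold it. Among the 131 solute carriers with a listed promoter the share was 67.2%. The amino acid response element TGATGNAA, searched on both strands, was in none of these 3 windows, in 3.67% of all promoters and in 2.29% of those of the solute carriers. For both motifs the 27305 genes were not limited to those detected in these cells, as the solute carriers were. The shares are thus of unlike sets, and a difference between them cannot be read as a trait of solute carriers. These are matches of letters in a window, and binding was not measured.

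SLCO4A1, an organic anion transporter that carries thyroid hormones and prostaglandins (probe ILMN_1727200), was the solute carrier with the largest decrease. Its log2 intensity was 9.43, 9.42 and 9.99 on the control arrays A, B and C and 9.47, 9.33 and 9.63 with perifosine, but 8.41, 8.49 and 7.70 with sorafenib and 8.50, 8.33 and 8.69 with both drugs. All 6 arrays with sorafenib lay below all 6 arrays without it, and control and perifosine overlapped. The log2 change was -1.41 ± 0.23 (SE) with sorafenib, a 2.66-fold lower intensity (limma, adjusted p = 0.0161), and -1.11 with both drugs, 2.15-fold lower (adjusted p = 0.0279). With perifosine it was -0.14 (adjusted p = 1.0). Without control array C the sorafenib value was -1.22 with an adjusted p of 0.0673, and without sorafenib array C it was -1.16 with an adjusted p of 0.062. No other measured member of the organic anion and cation group, which held 6 genes, was called.

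SLC66A3, also known as PQLC3, a relative of the lysosomal amino acid exporter SLC66A1 (probe ILMN_1814213), was the only solute carrier called higher with sorafenib alone. Its log2 intensity was 9.99, 9.76 and 9.99 in control cells, 10.37, 10.23 and 10.11 with perifosine, 10.52, 10.83 and 10.72 with sorafenib and 10.56, 10.74 and 10.42 with both drugs. The control arrays were below every array of the 3 treated groups, and the perifosine arrays were below those with sorafenib. Its log2 change was 0.78 ± 0.149 (SE) with sorafenib (1.71-fold, adjusted p = 0.0295) and 0.66 with both drugs (1.58-fold, adjusted p = 0.0372), and 0.32 with perifosine did not pass. The sorafenib value kept its size when single arrays were left out, but any control or sorafenib array left out, and perifosine array B, put its adjusted p between 0.0522 and 0.12. SLC66A2, the other gene measured under an SLC66 symbol, had -0.15 with sorafenib and -0.14 with both drugs.

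SLC25A42, which brings coenzyme A into the mitochondrion (probe ILMN_2222880), had the largest value of the 155 genes with both drugs. Its log2 intensity was 9.85, 9.29 and 9.24 in control cells, 9.98, 9.00 and 9.46 with perifosine, 10.82, 10.11 and 10.39 with sorafenib and 10.84, 10.66 and 10.39 with both drugs. All arrays with sorafenib were above all arrays without it, and array A was the highest of each group. The log2 change was 1.17 ± 0.272 (SE) with both drugs, 2.25-fold (adjusted p = 0.041). With sorafenib alone 0.98 did not pass (adjusted p = 0.096) and passed with the letter as a block (adjusted p = 0.0174), and with perifosine the value was 0.01. A second SLC25A42 probe, outside the detection limit, was detected on 2 arrays, and its group means lay between 6.50 and 6.95.

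SLC6A9, the glycine transporter GlyT1 (probe ILMN_1714445), lay just inside the detection limit. It was detected on 3 arrays, 2 with sorafenib and 1 with both drugs, and was not well above background on any control or perifosine array. The log2 intensity was 6.03, 6.21 and 6.09 in control cells, 6.17, 6.55 and 6.68 with perifosine, 6.65, 7.18 and 7.56 with sorafenib and 6.93, 7.34 and 7.49 with both drugs. Control arrays were lower than every array with sorafenib. The fitted log2 change with both drugs, 1.14 ± 0.236 (SE, adjusted p = 0.0267), is measured against a group without detection, and as a bound the level was at least 1.0-fold higher, which is no measured increase. With sorafenib 1.02 did not pass (adjusted p = 0.0538, and 0.0132 with the block). In the authors' normalized values the combination change was 0.30 (limma, adjusted p = 0.0715), and without background correction it was also 0.30. Each called gene had a smaller change with both drugs without background correction, so 0.30 and 1.14 are on unlike scales.

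SLC41A2, a magnesium transporter (probe ILMN_1747197), was called with both drugs and with neither drug alone. The log2 intensity was 8.98, 9.26 and 9.16 in control cells, 9.44, 9.42 and 9.13 with perifosine, 9.37, 9.42 and 9.24 with sorafenib and 9.75, 9.87 and 9.76 with both drugs. The 3 arrays with both drugs lay above the 9 other arrays, which overlapped. The log2 change was 0.66 ± 0.14 (SE) with both drugs (1.58-fold, adjusted p = 0.0297), beside 0.20 with perifosine and 0.21 with sorafenib, and its interaction was not past the threshold (0.25 ± 0.198, adjusted p = 1.0).

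SLC35B2 and SLC35B3 encode the PAPS transporters PAPST1 and PAPST2 of the Golgi. SLC35B2 (probe ILMN_1789001) had log2 intensities of 12.02, 12.28 and 12.14 in control cells, 11.72, 12.22 and 12.24 with perifosine, 11.33, 11.62 and 11.56 with sorafenib and 11.16, 11.28 and 11.45 with both drugs. All arrays with sorafenib were below all arrays without it. The log2 change was -0.85 ± 0.172 (SE) with both drugs, 1.80-fold lower (adjusted p = 0.0251), and -0.64 with sorafenib (adjusted p = 0.0875, and 0.0277 with the block). SLC35B3 (probe ILMN_1682910) had 8.87, 8.96 and 9.01 in control cells, 9.33, 9.01 and 9.14 with perifosine, 9.50, 9.53 and 9.13 with sorafenib and 9.62, 9.57 and 9.59 with both drugs. Its control arrays, at 9.01 or less, were level with or below every other array, and its arrays with both drugs were the 3 highest. The log2 change was 0.65 ± 0.148 (SE) with both drugs, 1.57-fold higher (adjusted p = 0.0381), and 0.44 with sorafenib did not pass (adjusted p = 0.155).

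**Figure D1:**
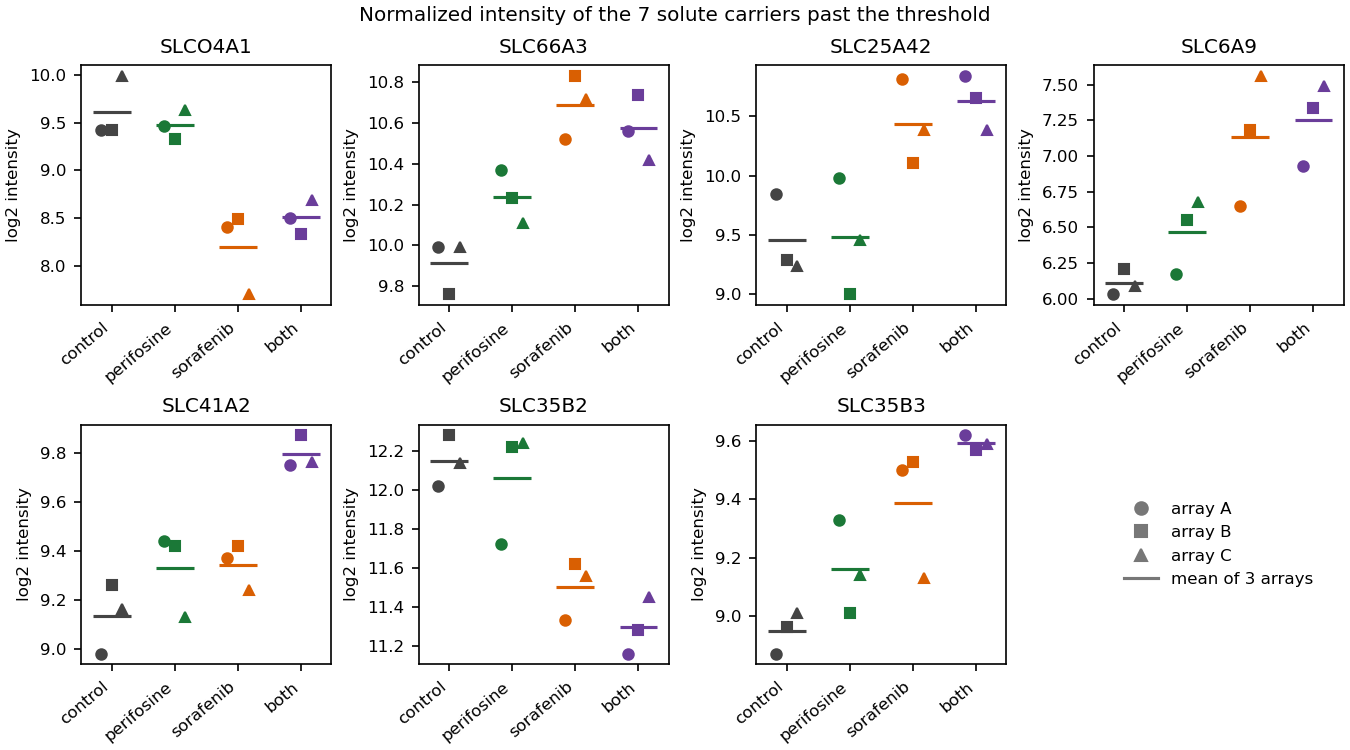
Normalized log2 intensity (vertical axis, a separate scale per gene) of the 7 called solute carriers by group (control, either drug alone, both drugs). Points are single arrays A, B and C, and bars are group means. SLCO4A1 falls from 9.42 or more in control cells to 8.69 or less on all arrays with sorafenib, and SLC41A2 stands apart in cells with both drugs, at 9.75 to 9.87.

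The 7 calls with both drugs were lost when certain single arrays were left out. With array weights, which gave array B of the combination the lowest weight, 0.291, all 7 passed (limma, adjusted p from 0.019 to 0.0338). Without array B of the combination none of the 7 passed, with adjusted p from 0.0532 for SLC35B2 to 0.0879 for SLC25A42. Their log2 changes then were -1.02 for SLCO4A1, 1.15 for SLC25A42, 1.10 for SLC6A9, -0.84 for SLC35B2, 0.66 for SLC35B3, 0.62 for SLC41A2 and 0.58 for SLC66A3, close to those with all arrays. No solute carrier passed without control array B or without control array C either. Without array A of the combination SLC6A9 alone passed, without array C of the combination SLC27A5 and SLC35B2 passed, and 4 genes passed without control array A or without perifosine array C.

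Among the 32 mitochondrial carriers SLC25A42 was called with both drugs (3.41% of all genes were) and no other was called on its brightest probe. When every kept probe was tested, a second probe of SLC25A26 passed and SLC25A42 did not. Of the 32, 15 were higher and 17 lower with perifosine (median log2 change -0.01), 16 and 16 with sorafenib (median 0.00), and 20 and 12 with both drugs (median 0.11). With median scaling in place of quantile normalization the last median was -0.01. The median of all genes tested then was -0.05, against 0.01 with quantile normalization. An unadjusted p under 0.05 was reached by no mitochondrial carrier with perifosine, 9 with sorafenib (16.9% of all genes did) and 7 with both drugs (20.9%). The arrays of treated and control cells did not overlap for 3 of the 32 with perifosine (9.38%, against 7.46% of all genes), 10 with sorafenib (31.2%, against 24.9%) and 8 with both drugs (against 24.3%).

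The 3 highest values of the family with sorafenib and with both drugs were those of SLC25A42, SLC25A37 and SLC25A16, of which SLC25A42 with both drugs passed. SLC25A37, mitoferrin 1, which imports iron for heme and iron-sulphur clusters, had log2 intensities of 9.26, 9.38 and 9.55 in control cells, 10.02, 9.70 and 9.29 with perifosine, 10.28, 10.00 and 9.91 with sorafenib and 10.19, 10.40 and 9.71 with both drugs. All arrays with sorafenib lay above the control arrays, and perifosine overlapped both. Changes of 0.66 ± 0.221 (SE) with sorafenib and 0.70 with both drugs did not pass (adjusted p = 0.148 and 0.105). Its close relative SLC25A28, mitoferrin 2, had -0.10 and 0.16. SLC25A16, related to the coenzyme A carriers, had 8.02, 7.00 and 7.76 in control cells and 8.42, 8.48 and 8.24 with sorafenib, a log2 change of 0.79 ± 0.246 (adjusted p = 0.128). With both drugs it had 0.56. SLC25A38, which imports glycine for heme synthesis, had -0.23 with perifosine, 0.27 with sorafenib and 0.42 with both drugs, and the glutathione importer SLC25A39 had -0.07, -0.06 and 0.10. The NAD importer SLC25A51 had -0.22 with both drugs.

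SLC25A26, which imports S-adenosylmethionine, was read by 3 kept probes that differed. The brightest had a log2 change of -0.30 with both drugs and did not pass. A second probe, ILMN_1777976, was detected on all 12 arrays and had log2 intensities of 10.13, 9.90 and 9.84 in control cells, 9.45, 9.57 and 9.87 with perifosine, 9.27, 9.57 and 9.51 with sorafenib and 9.12, 8.85 and 9.45 with both drugs. All arrays with sorafenib, alone or with perifosine, lay below the control arrays, and perifosine overlapped control. Tested with every kept probe, its change with both drugs was -0.82 ± 0.187 (SE, limma, adjusted p = 0.0451), past the threshold, where 2.34% of all 11904 probes passed. The remaining probe, detected on 9 arrays, had -0.14. In that test SLC25A42 was not past the threshold (adjusted p = 0.0514).

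No carboxylate carrier was called. SLC25A1, the citrate carrier that delivers citrate to the cytosol for fatty acid synthesis, had log2 intensities of 11.87, 11.61 and 11.81 in control cells, 11.88, 11.99 and 12.11 with perifosine, 11.38, 10.96 and 11.46 with sorafenib and 11.45, 11.20 and 11.44 with both drugs. Perifosine arrays were the highest, and all arrays with sorafenib were below all control arrays. The log2 changes of 0.23, -0.49 and -0.40 (SE 0.162) did not pass (adjusted p = 1.0, 0.144 and 0.189). SLC25A10, the dicarboxylate carrier, had 8.35, 8.06 and 8.59 in control cells and 7.63, 7.65 and 8.01 with perifosine, and its log2 changes were -0.57, -0.68 and -0.52 (SE 0.279) with perifosine, sorafenib and both drugs. SLC25A11, the oxoglutarate carrier of the malate-aspartate shuttle, was detected on 6 arrays and had -0.61, 0.15 and -0.49 (SE 0.41). SLC25A21, the oxodicarboxylate carrier, was also detected on 6 arrays and had -0.76, -0.59 and -0.77 (SE 0.464), the lowest values of the family with perifosine and with both drugs.

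No nucleotide or phosphate carrier was called. The ADP/ATP carrier SLC25A5 had log2 changes of 0.04, 0.01 and 0.02 with perifosine, sorafenib and both drugs, and the phosphate carrier SLC25A3 had 0.10, 0.11 and 0.12. SLC25A4, the ADP/ATP carrier of muscle and heart, had 12.67, 12.79 and 12.86 in control cells, 12.25, 12.40 and 12.31 with sorafenib and 12.26, 12.65 and 12.37 with both drugs. Its arrays with sorafenib were below the control arrays, with log2 changes of -0.46 and -0.35 (SE 0.147) that did not pass (adjusted p = 0.139 and 0.207). Of the calcium-regulated ATP-Mg/phosphate carriers, SLC25A24 had 0.33, 0.39 and 0.46 (SE 0.177), SLC25A23 had 0.26, -0.07 and -0.21, and SLC25A25 had 0.10, -0.27 and -0.04. SLC25A17, which carries cofactors into peroxisomes, had -0.16, -0.53 and -0.50 (SE 0.234).

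Among the amino acid carriers of the mitochondrion, SLC25A13, an aspartate-glutamate carrier, was detected on all 3 perifosine arrays, on 1 control array, on none with sorafenib and on 1 with both drugs. Its log2 intensity was 6.69, 7.44 and 6.72 in control cells, 7.85, 7.46 and 7.43 with perifosine and 7.04, 6.56 and 6.88 with sorafenib, and perifosine and control overlapped. The change with perifosine was 0.63 ± 0.364 (SE, adjusted p = 1.0). Its paralogue SLC25A12 had 0.17, -0.29 and -0.19, the ornithine carrier SLC25A15 had -0.15, 0.16 and 0.01, and the glutamate carrier SLC25A22 had 0.26, -0.11 and 0.11. The carnitine carrier SLC25A20, which brings fatty acids in for oxidation, had -0.14, 0.14 and 0.24.

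**Figure D2:**
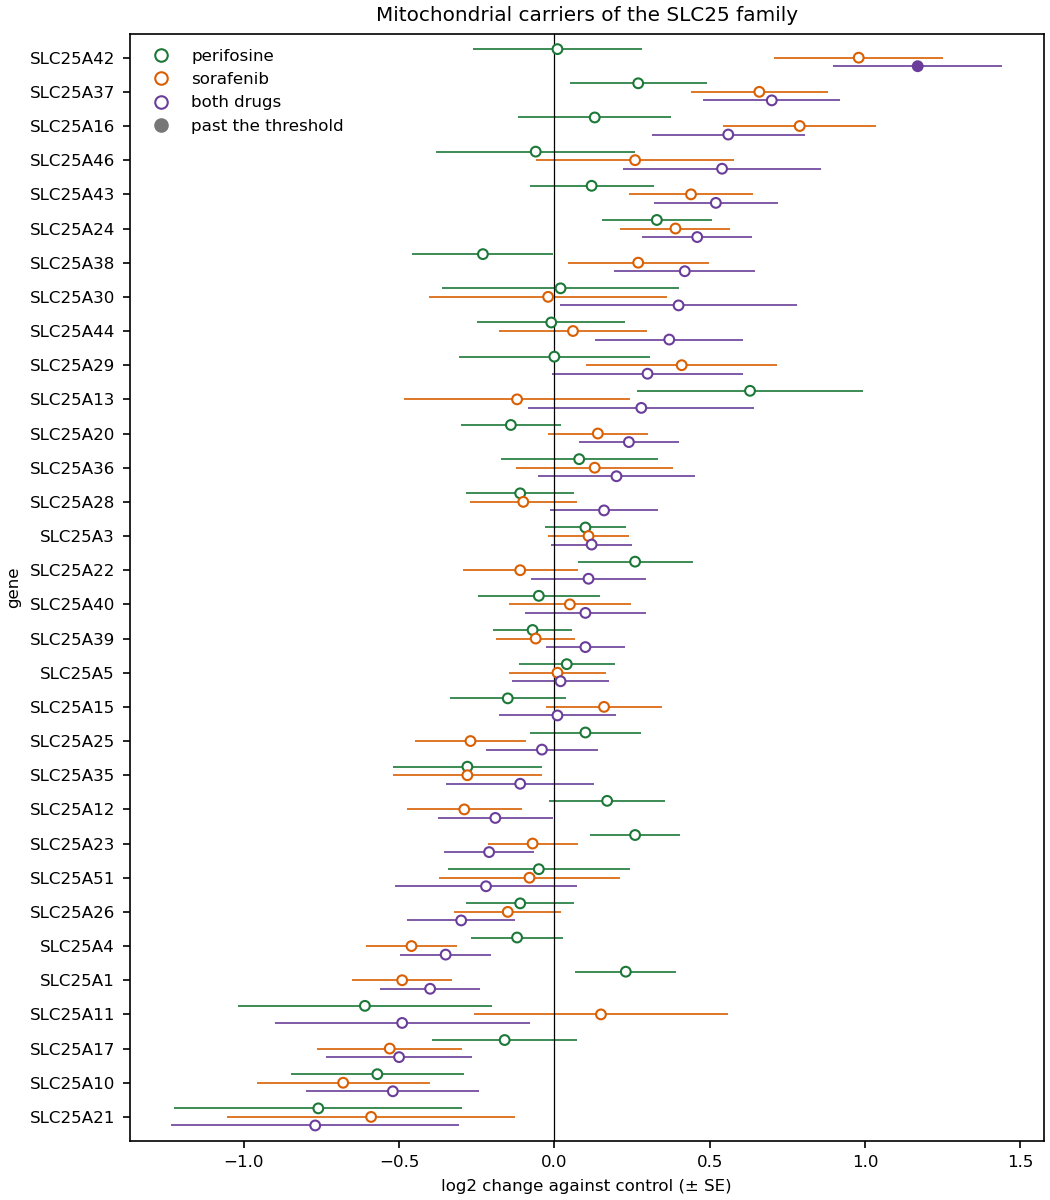
Log2 change against control (horizontal axis, ± SE of the fit) of the 32 mitochondrial carriers, with perifosine, sorafenib and both drugs (3 arrays per group). Genes are ordered by the value with both drugs, and the filled point is past the threshold. SLC25A42 has the highest value, 1.17, SLC25A21 the lowest, -0.77, and perifosine points lie between -0.76 and 0.63.

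In the SLC35 family, 21 carriers were measured, with 10 higher and 11 lower with perifosine, 10 and 11 with sorafenib and 11 and 10 with both drugs. The medians were -0.03, -0.07 and 0.06, and SLC35B2 and SLC35B3 were the called members. SLC35C1, which takes GDP-fucose into the Golgi, was detected on all 3 control arrays and on no perifosine array. Its log2 intensity was 8.01, 7.33 and 7.46 in control cells, 6.76, 6.88 and 6.75 with perifosine, 6.22, 7.20 and 7.31 with sorafenib and 7.80, 7.07 and 6.96 with both drugs. Perifosine and sorafenib arrays were all below control, while arrays with both drugs overlapped it. The level with perifosine was at least 1.29-fold lower, with a fitted change of -0.80 ± 0.304 (SE, adjusted p = 1.0). SLC35D4, also known as TMEM241, was likewise detected on all control and no perifosine arrays. It had 7.92, 7.81 and 7.52 in control cells and 6.87, 6.99 and 7.28 with perifosine, at least 1.43-fold lower, with a fitted change of -0.70 ± 0.232 (adjusted p = 1.0). The UDP-galactose transporter SLC35A2 had 0.02, -0.19 and -0.22, and the CMP-sialic acid transporter SLC35A1 had 0.17, 0.34 and 0.45.

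**Figure D3:**
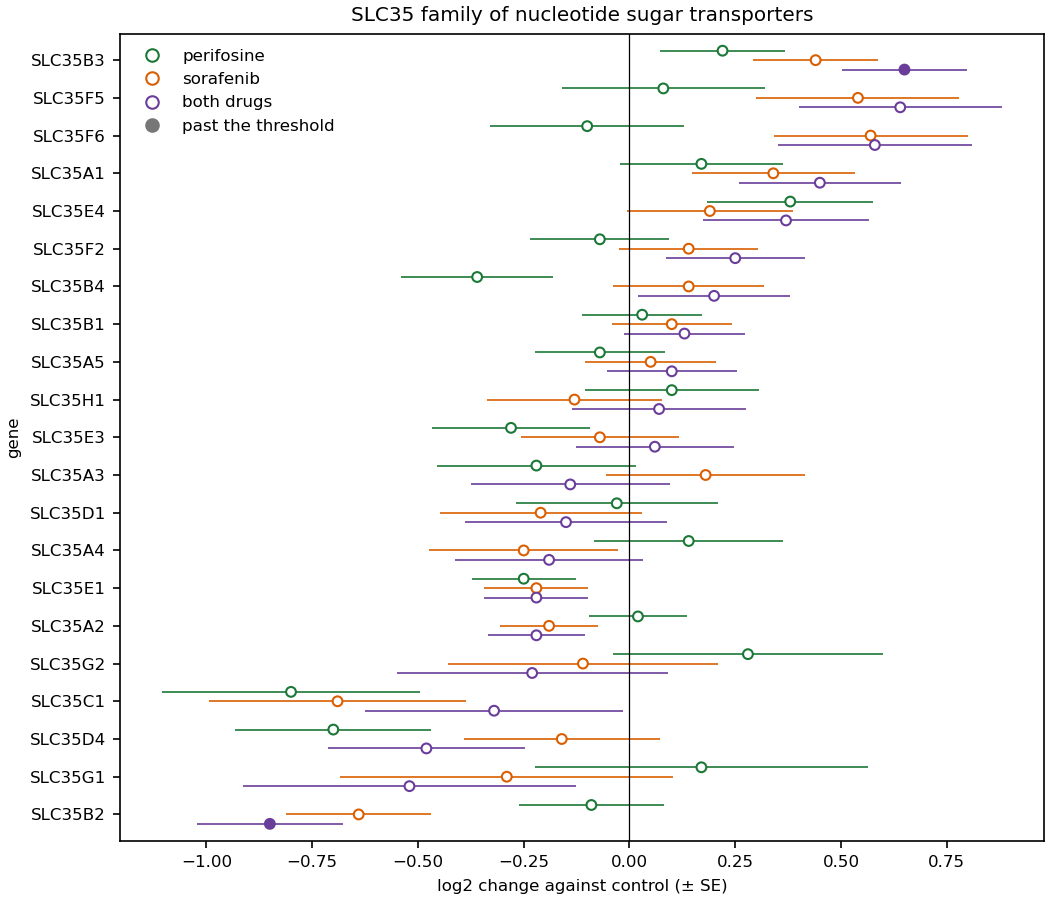
Log2 change against control (horizontal axis, ± SE of the fit) of the 21 SLC35 carriers with perifosine, sorafenib and both drugs (3 arrays per group). Genes are ordered by the value with both drugs, and filled points are past the threshold. SLC35B3 at 0.65 and SLC35B2 at -0.85 lie at opposite ends of the family.

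The sugar families held 11 genes, the non-carrier SLC2A4RG included, and none was called. SLC5A3, which takes up the osmolyte myo-inositol, was detected on 2 control and 2 perifosine arrays and on no array with sorafenib. Its log2 intensity was 7.56, 7.57 and 7.06 in control cells, 7.07, 7.89 and 7.88 with perifosine, 6.66, 6.96 and 6.27 with sorafenib and 6.56, 5.91 and 6.75 with both drugs. Arrays with sorafenib were all below those without it. The level was at least 1.16-fold lower with sorafenib and at least 1.05-fold lower with both drugs, with fitted changes of -0.77 and -0.99 ± 0.289 (SE, adjusted p = 0.195 and 0.0827). SLC2A11, a facilitative sugar transporter, had 0.46 with sorafenib on its brighter probe, while another kept probe had -0.75. Among the 6 carboxylate carriers the medians were 0.07, -0.05 and 0.14, and none was called.

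The metal carriers numbered 20, of which 12 were higher with perifosine, 7 with sorafenib and 12 with both drugs. SLC41A2 was the called member. SLC39A11, a zinc importer of the ZIP family, had log2 intensities of 9.30, 8.96 and 8.97 in control cells, 9.41, 9.60 and 9.28 with perifosine, 9.96, 10.03 and 9.53 with sorafenib and 9.85, 9.73 and 9.43 with both drugs. All arrays with sorafenib were above control, and the change of 0.76 ± 0.182 (SE) passed with the block (adjusted p = 0.0219) and did not pass without it (adjusted p = 0.0583). The copper importer SLC31A1 had -0.85 ± 0.454 with both drugs and SLC39A8, which imports zinc and manganese, -0.82 ± 0.343. In both genes array B was the lowest of the 3 combination arrays, at 6.73 and 8.03, against 8.74 and 8.34 for SLC31A1 and 9.23 and 8.58 for SLC39A8 on arrays A and C. The 5 zinc exporters of the SLC30 family lay between -0.20 and 0.36 with both drugs.

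Of 15 genes of the amino acid and peptide families, which include the pseudogene SLC7A5P2 and the non-carrier SLC7A6OS, SLC6A9 was the called one, and medians were 0.09, 0.06 and 0.02. SLC38A5, a glutamine transporter, had 0.66 ± 0.468 (SE) with perifosine, with arrays of 6.72, 8.48 and 7.32 against 6.94, 7.52 and 6.07 in control cells, which overlapped. The 15 genes of inorganic ion transport had no call, and 12 of them were higher with perifosine (median 0.16), 7 with sorafenib and 7 with both drugs. The phosphate importer SLC20A2 had 0.43 ± 0.274 with perifosine. The 8 vitamin and choline carriers had no call, and medians of 0.05, 0.04 and -0.12.

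Of 18 genes of other families, SLC66A3 was the called one. SLC67A1, also known as SLC22A18, an imprinted organic cation transporter gene, had log2 intensities of 10.95, 10.66 and 10.70 in control cells, 11.11, 10.59 and 10.73 with perifosine, 11.84, 11.21 and 11.57 with sorafenib and 11.87, 11.53 and 11.33 with both drugs. All arrays with sorafenib were above those without it. The change was 0.77 ± 0.209 (SE) with sorafenib (adjusted p = 0.089, and 0.0176 with the block) and 0.81 with both drugs (adjusted p = 0.0587). The antisense RNA of the same locus, SLC67A1-AS, had 0.70 and 0.72 (adjusted p = 0.117 and 0.0844), so the sense and antisense probes had values of similar size. SLC27A5, a bile acid coenzyme A ligase, had 9.92, 10.03 and 10.07 in control cells, 10.21, 10.31 and 10.24 with perifosine, 9.65, 9.45 and 9.68 with sorafenib and 9.22, 8.14 and 9.72 with both drugs. Perifosine arrays were above control and arrays with sorafenib below it, and array B with both drugs was the lowest. The change with both drugs was -0.98 ± 0.299 (adjusted p = 0.0935). SLC60A2 had 0.71 ± 0.552 with perifosine and was not well above background on any control array.

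**Figure D4:**
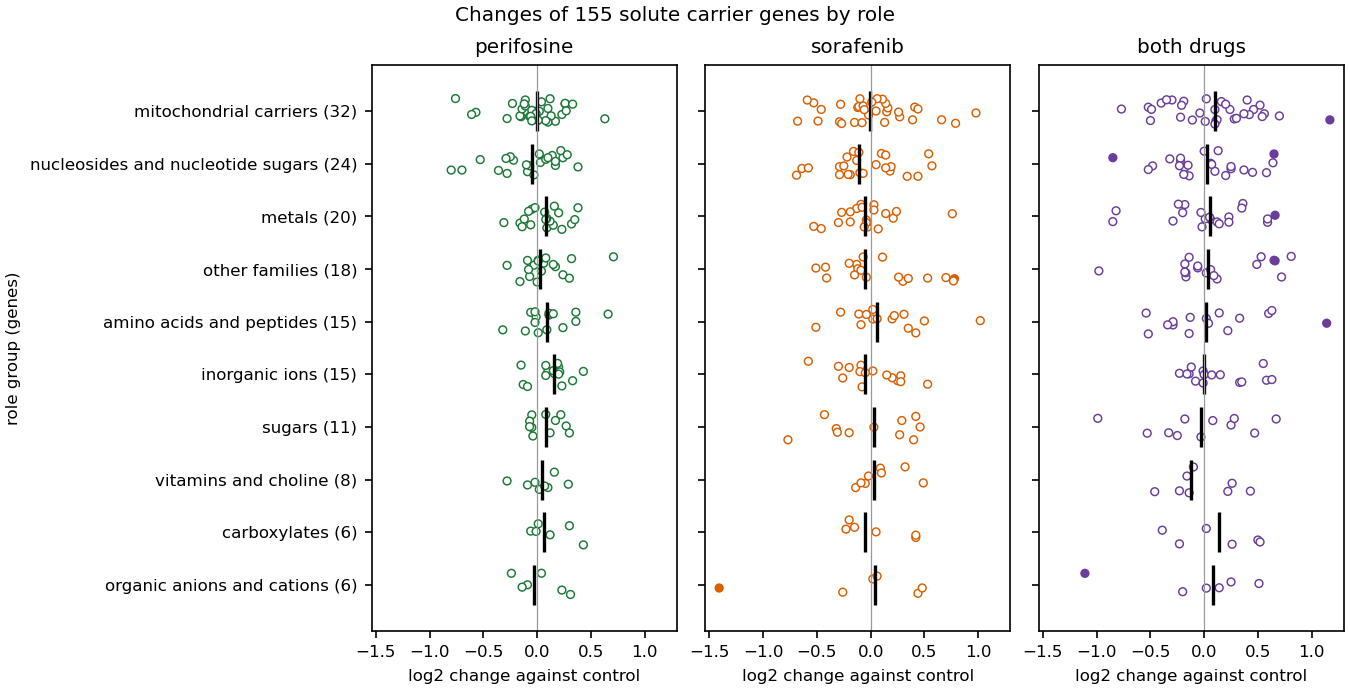
Log2 change against control (horizontal axes) of the 155 genes by what their family carries, for perifosine, sorafenib and both drugs. Points are genes, black bars are group medians and filled points are past the threshold. The medians lie between -0.12 and 0.16, and the called genes are spread over 6 role groups.

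The effect of adding one drug to the other was tested directly. When sorafenib was added to perifosine, 1 solute carrier was called, 0.645% of them against 2.39% of all genes tested. It was SLC35B2, lower by a log2 change of -0.77 ± 0.172 (SE, limma, adjusted p = 0.0421). SLC25A42, at 1.15 (adjusted p = 0.0502), and SLCO4A1, at -0.97 (adjusted p = 0.0526), lay just outside the threshold. Of the 12 arrays left out in turn, the SLC35B2 call held only without perifosine array A, and its value ranged from -0.94 to -0.68 with an adjusted p of up to 0.167. Adding perifosine to sorafenib gave no call among the solute carriers or among all genes (0.0%). At an unadjusted p under 0.05 there were 2 solute carriers and 164 genes. In the interaction, which sets the change with both drugs against the sum of the changes with each, limma called none (0.0% of all genes), and 1 solute carrier and 163 genes had an unadjusted p under 0.05.

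The detection limit divides probes of similar brightness. The 11 solute carrier probes detected on exactly 3 arrays, those of SLC16A7, SLC25A29, SLC35B4, SLC35E2A, SLC38A5, SLC38A6, SLC39A7, SLC60A2, SLC6A6, SLC6A9 and a second probe of SLCO3A1, had mean log2 intensities of 6.51 to 7.12. The 13 detected on exactly 2 arrays had 6.17 to 6.96. For comparison, 10 of the 14 carriers set aside at the start were measured and none was called, with medians of 0.05, 0.23 and 0.16. The highest was SLC7A11, at 0.81, 0.65 and 0.79, with all treated arrays above control. With both drugs its limma adjusted p was 0.0557, and 0.032 with the letter as a block, where 8.03% of all genes passed. The combination arrays, however, were not taken to pair by letter. None was called either among 15 carriers whose symbols do not begin with SLC, such as the mitochondrial pyruvate carriers MPC1 and MPC2 (medians -0.07, -0.15 and -0.21), nor among 11 genes of mitochondrial import and porins, such as TOMM20 and VDAC1 (medians -0.08, -0.14 and -0.19).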

How the data were processed

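Gene expression in 12 RNA samples of L-540 cells was measured on Illumina BeadChips. The authors deposited unnormalized intensities with a detection p-value per probe and array, and a table of normalized intensities, and BeadStudio was used per the submitters' processing notes. How that table was normalized is not stated in any source used. Its array medians, 492.3 to 492.9, are nearly equal, against 404.3 to 648.7 in the unnormalized file. The array held 48803 probes, of which 28098 had 1 gene symbol in the platform annotation, 13 had several and 20692 had none, and 11904 passed the detection limit.

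From the unnormalized intensities neqc in limma 3.58.1 (R 4.3.3) subtracted background estimated through the detection p-values, with an offset of 16, applied quantile normalization and took log2. A gene was read by its kept probe with the highest mean over 12 arrays. lmFit and eBayes were fitted to 4 group means over 8092 genes, with Benjamini-Hochberg adjustment over all of them. On simulated data of that size, for sorafenib against control, 64 of 100 genes changed by 1 log2 unit and 92 of 100 changed by 2 were called, with 8 false calls. The simulated arrays were independent and of equal quality, without the deviations shared by letter, so these counts may not hold for the real arrays. The number of arrays limits the precision. Where a group had no detection, a bound ("at least") is given against the lowest detected signal.

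Array letters were taken to pair control, perifosine and sorafenib, since their same-letter deviations correlated in every pair (r from 0.186 to 0.385), but not the combination (r from -0.161 to 0.319). The genes named are the called members, the 3 highest and 3 lowest SLC25 and other members per comparison with control, members detected on all arrays of one group and none of another, members whose probes disagree, and those at the detection limit. Other genes were named for their substrate or their place in a role group after their values were seen. The members, lists and motifs were chosen with earlier results of these data known. Alternatives were median scaling, the authors' table, no background correction, 2 other detection rules, every kept probe, array weights, the letter as a block, and each array left out. The authors' table and no background correction gave the same log2 changes for the called genes, so they are not independent alternatives. Probes with no or several symbols, and genes under the limit, were not analysed here.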

Additional observations from a re-analysis of the deposited data

Results flagged for a closer look

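SLC35C1, the Golgi GDP-fucose transporter gene, was lower on all sorafenib arrays (6.22, 7.20 and 7.31) than on all control arrays (8.01, 7.33 and 7.46), but higher on all arrays with both drugs (7.80, 7.07 and 6.96) than on all perifosine arrays (6.76, 6.88 and 6.75). The interaction was 1.17 ± 0.43 on the log2 scale (SE) and did not pass the threshold (limma, adjusted p = 1.0). The probe was detected on 3, 0, 2 and 1 arrays of control, perifosine, sorafenib and combination cells, so the size and sign of the difference between the perifosine and combination arrays rest mostly on values not well above background.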

How the results depend on the processing

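The count of called solute carriers depended on the processing. A count given here without the share of all genes cannot be read as a result about solute carriers. With sorafenib, where 2 were called, median scaling gave 0, no detection filter 1, and the authors' table and no background correction 6 each. Array weights gave 7, the replicate block 7 (4.99% of all genes passed), and leaving out single arrays 0 to 2. The block without the combination arrays, chosen after seeing the data, gave 10. With both drugs, where 7 were called, median scaling and no detection filter gave 0, the replicate block 12 (8.03% of all genes passed), and leaving out single arrays 0 to 7. For both drugs against perifosine, where 1 was called, median scaling, no detection filter and testing every kept probe gave 0, the authors' table and no background correction 7 each, detection on all 3 arrays of a group 4, array weights 6, the replicate block 8 (6.19% of all genes), and leaving out single arrays 0 to 3. The other 3 comparisons gave 0 under every alternative run. No direction turned among 41 single-gene values under 832 alternatives, of which 89 lost and 25 gained a call. SLCO4A1 with sorafenib kept its call in 18 of 21 alternatives, with log2 changes from -1.56 to -0.72 and adjusted p from 0.00564 to 0.175, and SLC66A3 in 12 of 21 (0.57 to 0.86, adjusted p from 0.00938 to 0.525). Calls with both drugs were kept in 8 of 20 (SLC35B3) to 14 of 20 (SLC35B2) alternatives. The cause of these differences was not tested. Values near background, such as those of SLC6A9 and SLC5A3, are limited by signal over background.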
